A study of Mus musculus with 45 samples.

Results

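The 10 genes described here cover the uptake, sensing and use of short-chain fatty acids in the colonic epithelium of mice. They comprise 4 transporters (Slc16a1, Slc5a8, Slc16a12 and Slc13a2), 1 receptor (Ffar2), 3 activating enzymes (Acss1, Acss2 and Acsm3) and 2 acyl-CoA dehydrogenases (Acads and Acadsb). They were taken by symbol from a table of RNA-seq read counts with 24918 entries, where each had 1 entry, and all 10 were among the 12961 entries with enough counts to test. Acss1, Acss2, Acsm3 and Acadsb entered the set because the study named them as downregulated in obese mice. Slc16a12 and Slc13a2 entered because of an earlier look at the formerly obese mice. In both cases these same libraries were used. The differences of the 10 genes between groups are therefore given as a description, with no p-value printed. A call named for any of the 10 genes only says that its values passed the cutoffs.

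The study asked what diet-induced obesity and later weight loss do to transcripts and methylated DNA of the colonic epithelium. All mice were male C57BL/6 (C57BL/6J in the study's methods), 6 weeks old at the start, and were followed for 20 weeks in 3 groups of 5 separate mice. Control mice (LF) ate a diet with 10% fat throughout, obese mice (HF) ate a diet with 60% fat throughout, and formerly obese mice (HF-LF) ate the high-fat diet for 15 weeks and the low-fat diet for the last 5 weeks, with lard as the source of fat in both diets. The study reports that body weights of formerly obese mice were back to normal at the end. At that point these mice matched control mice in current diet and weight and differed from them in the history of both. Diet and body weight, present or past, cannot be told apart in any comparison. The epithelium of the entire colon was released with EDTA, so proximal and distal colon are mixed in each library. In such bulk samples fewer cells of a type and less RNA per cell cannot be told apart either.

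Short-chain fatty acids, mainly acetate, propionate and butyrate, are made by bacteria that ferment fibre in the gut lumen. Colonocytes take them up with proton-coupled and sodium-coupled carriers, join them to coenzyme A, and oxidize them in the mitochondria, and butyrate is known as a main fuel of these cells. Acetate joined to coenzyme A outside the mitochondria can instead feed lipid synthesis and the acetylation of proteins.

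The 15 RNA-seq libraries held between 15230391 and 22762095 counted fragments, with a median of 15841368 in control mice, 16393870 in obese mice and 17934111 in formerly obese mice. Colonocyte markers summed to 7647 to 15810 CPM (counts scaled to library size) over all libraries, against at most 2.26 CPM for 4 smooth muscle, 29.5 CPM for 4 fibroblast and 37.2 CPM for 5 immune markers, and 2 of 4 adipocyte markers were at 0 in all 15 libraries. Several lists moved with the formerly obese group (calls are defined with the differences below). Over all genes, 1.85% were called higher and 1.87% lower in formerly obese against control mice. These shares were 0.718% and 0.864% in obese against control mice, and 1.23% and 1.42% in formerly obese against obese mice. The summed colonocyte level was 10750 to 15810 CPM there, beside 8427 to 12580 CPM for obese and 7647 to 13520 CPM for control mice, and 3 of its 7 markers were called higher than in control mice. Of 7 posterior Hox genes, which mark the distal colon, 5 were called lower in formerly obese than in control mice (summed level 310.0 to 411 CPM against 437 to 539 CPM), and of 9 genes typical of small intestine, 4 were called higher (1120 to 1393 CPM against 713 to 1074 CPM). In obese mice 1 of the Hox genes was called lower and 2 of the small-intestine genes higher than in control mice (6 of the 9 small-intestine genes had enough counts to test). Most of the small-intestine sum came from Fabp2 (260 to 687 CPM over all libraries) and Apob (363 to 634.5 CPM). Apoa1, Apoa4 and Lct were at most 0.735 CPM in any library. Car1 was the largest single part of the colonocyte sum (2054 to 9702 CPM). Car2 was 1306 to 1743 CPM in formerly obese and 1396 to 1830 CPM in control mice. Of 3 tuft cell markers 2 were called higher in formerly obese than in control mice (summed level 40.4 to 54.7 CPM against 29.5 to 43.0 CPM), as was Cidec, the 1 adipocyte marker with enough counts to test (4.89 to 12.1 CPM against 2.82 to 5.48 CPM). Between formerly obese and obese mice 2 colonocyte markers were called higher, and 1 Hox gene and 1 of 5 enteroendocrine markers lower. The part of these shifts in the differences below was not tested. The library of formerly obese mouse 5 held the highest value of its group for 9 of the 10 genes.

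The letters upstream of the 5 genes called in any comparison between groups (the call is defined with the differences) are shown first. They are 3 enzymes that were lower in obese mice, and the carriers Slc13a2 and Slc16a12, which were higher and lower in formerly obese mice. They are the 250 bases before each transcription start from RefSeq on GRCm38.p6, 5′ to 3′ on the gene's strand, and capitals mark matches to the motifs named after them. The windows are Acss2 at chr2:155517793-155518042 (plus strand), Acsm3 at chr7:119760673-119760922 (plus), Acadsb at chr7:131410351-131410600 (plus), Slc13a2 at chr11:78422235-78422484 (minus) and Slc16a12 at chr19:34747329-34747578 (minus), whose RefSeq start lies 217 bases before the gene start given with its values.
Acss2: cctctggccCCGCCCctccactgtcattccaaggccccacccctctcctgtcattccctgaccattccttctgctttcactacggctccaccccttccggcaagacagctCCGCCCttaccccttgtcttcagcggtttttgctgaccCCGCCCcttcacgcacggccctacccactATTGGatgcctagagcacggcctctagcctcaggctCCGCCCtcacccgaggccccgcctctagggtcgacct
Acsm3: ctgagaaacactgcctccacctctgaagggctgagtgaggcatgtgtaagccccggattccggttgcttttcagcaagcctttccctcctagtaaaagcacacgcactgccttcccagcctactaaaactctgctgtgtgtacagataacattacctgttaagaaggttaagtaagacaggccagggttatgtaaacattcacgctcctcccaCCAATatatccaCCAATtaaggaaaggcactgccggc
Acadsb: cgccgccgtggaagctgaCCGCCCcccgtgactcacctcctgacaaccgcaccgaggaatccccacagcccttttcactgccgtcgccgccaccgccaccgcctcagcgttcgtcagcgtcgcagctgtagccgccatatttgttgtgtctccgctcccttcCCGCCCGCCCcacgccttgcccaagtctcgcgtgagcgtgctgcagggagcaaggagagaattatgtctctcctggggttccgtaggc
Slc13a2: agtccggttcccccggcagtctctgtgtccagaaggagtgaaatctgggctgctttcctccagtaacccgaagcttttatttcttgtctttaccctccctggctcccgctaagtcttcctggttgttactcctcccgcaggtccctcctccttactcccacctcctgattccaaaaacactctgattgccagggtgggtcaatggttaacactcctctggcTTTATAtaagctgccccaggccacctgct
Slc16a12: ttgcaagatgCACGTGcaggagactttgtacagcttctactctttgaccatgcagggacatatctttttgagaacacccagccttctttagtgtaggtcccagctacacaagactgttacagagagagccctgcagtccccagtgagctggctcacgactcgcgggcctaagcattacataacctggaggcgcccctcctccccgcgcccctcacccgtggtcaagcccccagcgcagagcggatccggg

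The search covered both strands. The letters taken for a GC box were GGGCGG and those for an E-box CACGTG. The same was done for the CCAAT box and for a TATA box spelled TATAAA. Further motifs were a sterol response element, spelled TCACNCCAC, and 2 elements bound by nuclear receptors of lipid metabolism, an HNF4 element spelled CAAAGTCCA and a DR1 element. The Acss2 window held 4 GC boxes and 1 CCAAT box, and the Acadsb window held 3 GC boxes, of which 2 overlap. The Acsm3 window held 2 CCAAT boxes and no GC box, the Slc13a2 window held 1 TATA box, and the Slc16a12 window held 1 E-box. Over 32851 RefSeq windows of this length, 32.7% held a GC box, 33.8% a CCAAT box, 12.4% a TATA box and 6.02% an E-box. The windows of the 3 enzymes thus had no motif that all of them shared. The sterol response element (1.05% of windows), the DR1 element (0.0335%) and the HNF4 element (0.384%) were in none of the windows of the 10 genes. Of the other genes, Slc5a8 had 3 GC boxes, Acss1 had 2, Acads had 1, and Slc16a1 had 1 GC box and 1 E-box. Of the 10 genes 9 had a single window, and Ffar2 had 4, of which the farthest upstream held 1 E-box.

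Levels between genes were compared per kilobase of exon, because longer transcripts give more fragments. In control mice Acads was the highest at 213.1 ± 27.3 CPM per kb (SD, n = 5), and Slc16a12 was the lowest at 2.32 ± 0.133 CPM per kb, a 91.9-fold range. Slc16a1 (137 ± 21.4 CPM per kb), Slc5a8 (133 ± 22.6), Acsm3 (131 ± 10.5) and Slc13a2 (109 ± 9.62) came next, and each of these overlapped the next in this order over the 5 control mice, up to Slc13a2. Acss2 (85.9 ± 5.77 CPM per kb), Acss1 (49.2 ± 1.16), Acadsb (11.3 ± 0.712) and Ffar2 (7.52 ± 0.992) followed without overlap between neighbours. The colonic epithelium thus carried the mRNAs of the butyrate carriers Slc16a1 and Slc5a8 and of the butyrate-oxidizing enzyme Acads well above those of Ffar2 and Slc16a12.

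**Figure D1:**
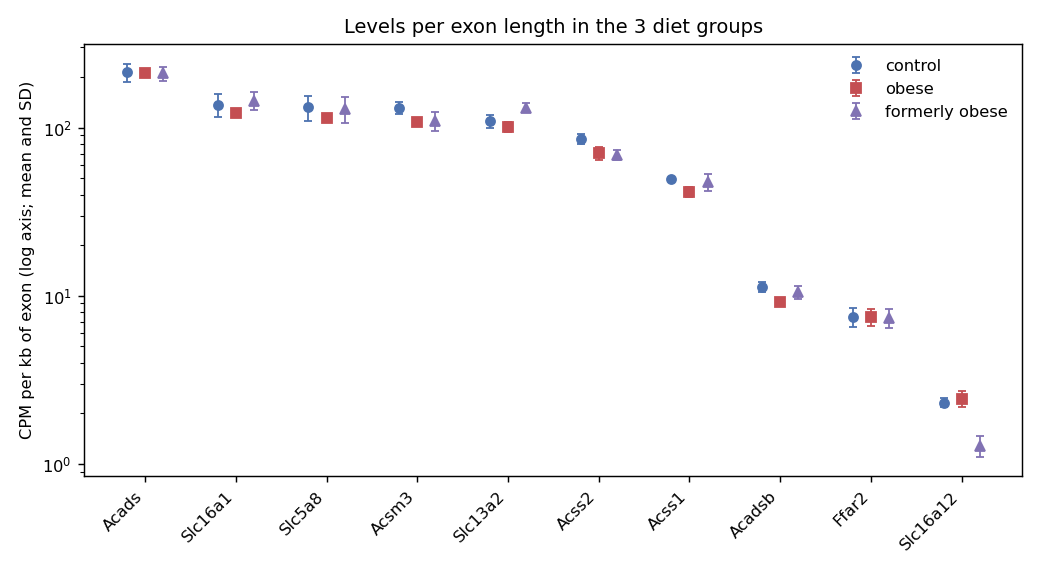
Mean level per exon length of the 10 genes in control, obese and formerly obese mice, in CPM per kb of exon on a log axis, with SD over 5 mice as bars. Genes are ordered by the control level, from Acads at 213.1 to Slc16a12 at 2.32 CPM per kb, and Slc16a12 is the gene with the clearest gap between groups.

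Group differences are log2 fold changes ± standard error (SE) from edgeR's quasi-likelihood fit over all 15 libraries, and levels in CPM are means ± SD over 5 mice. A gene is said to be called where its fold change exceeded 1.2, its p was under 0.01 and its Benjamini-Hochberg adjusted p over all 12961 genes was under 0.25, the cutoffs in the study's methods. In obese against control mice the difference was negative for 9 of the 10 genes, with 3 enzymes called lower and no transporter called. Over all genes 0.864% were called lower and 0.718% higher in that comparison. In formerly obese against control mice 2 of the 10 genes were called lower (Slc16a12 and Acss2; background 1.87%) and 1 higher (Slc13a2; background 1.85%). Between formerly obese and obese mice 1 was called lower (Slc16a12; background 1.42%) and 1 higher (Slc13a2; background 1.23%). Since the genes were chosen with these comparisons known, nothing is read from these counts.

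**Figure D2:**
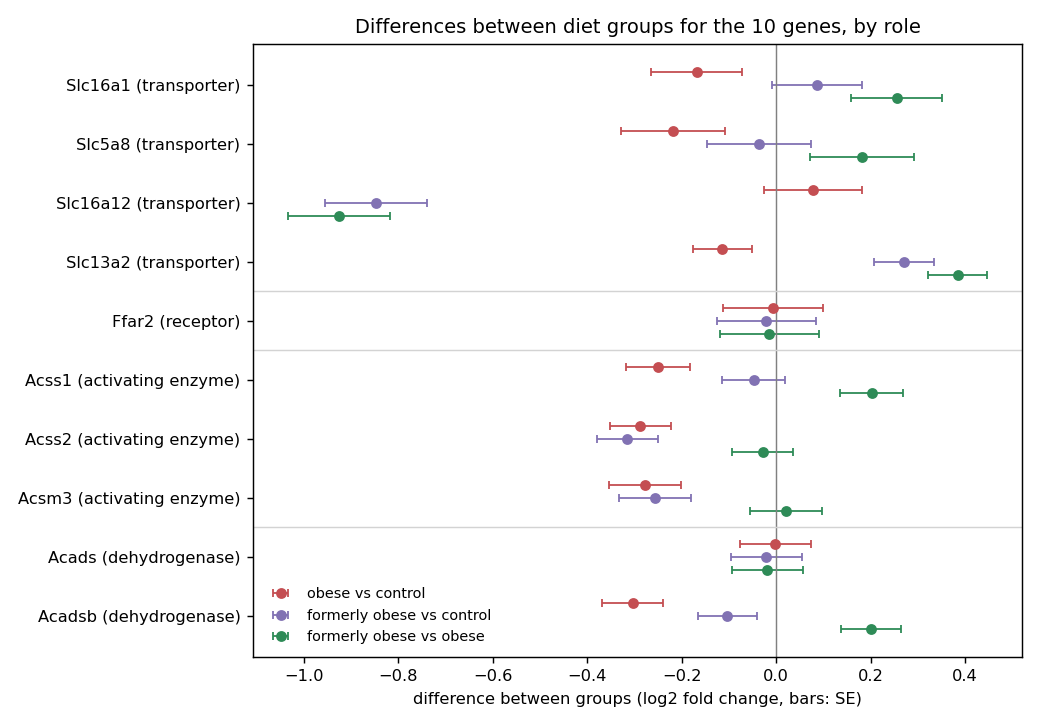
Log2 fold change of each gene in 3 comparisons between diet groups, with SE as bars and genes grouped by role. Acss2 and Acsm3 lie between -0.32 and -0.26 in both comparisons with control mice, Acss1 and Acadsb lie farther from 0 in obese than in formerly obese mice, and Slc16a12 lies at -0.85 and -0.93 in the comparisons with formerly obese mice.

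Among the transporters, Slc16a1 (chromosome 3, 104638664 to 104658462, mm10, plus strand) encodes the proton-coupled monocarboxylate carrier that moves lactate, acetate and butyrate. Its level in control mice 1 to 5 was 522, 675, 528, 734 and 566 CPM. In obese mice it was 538, 528, 561, 555 and 509 CPM, and in formerly obese mice 688, 600.2, 688, 521 and 714 CPM. Control mice 2 and 4 were high and the other 3 lay near the obese mice, and formerly obese mouse 4 lay near the low end of all 15. The log2 fold change was -0.17 ± 0.10 in obese against control mice, 0.09 ± 0.10 in formerly obese against control mice and 0.26 ± 0.10 in formerly obese against obese mice. The SD of the control group was 94.6 CPM against 21.0 CPM in obese mice.

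Slc5a8 (chromosome 10, 88885992 to 88929515, plus strand) encodes the sodium-coupled monocarboxylate carrier of the apical membrane. The control mice had 607, 834, 623, 844 and 628 CPM, and the obese mice had 637, 630.5, 558, 604 and 611 CPM. In formerly obese mice it was 622, 677, 648, 606 and 897 CPM. The same control mice, 2 and 4, stood above the other 3, and formerly obese mouse 5 stood above the rest of its group, while every obese mouse was below the control mean. The log2 fold change was -0.22 ± 0.11 in obese against control mice, -0.04 ± 0.11 in formerly obese against control mice and 0.18 ± 0.11 in formerly obese against obese mice. The ranges of the 3 groups overlapped for both butyrate carriers.

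Slc16a12 (chromosome 19, 34668406 to 34747111, minus strand) belongs to the monocarboxylate carrier family and is known mainly as a carrier of creatine. Control mice had 9.40, 10.4, 9.43, 9.11 and 9.07 CPM and obese mice 10.1, 11.2, 10.9, 8.79 and 9.01 CPM. The formerly obese mice had 3.96, 5.64, 5.65, 5.32 and 5.71 CPM. All 5 formerly obese mice were below all 10 other mice, and mouse 1 was the lowest of them. The mean was 5.26 ± 0.740 CPM against 9.48 ± 0.544 CPM in control and 10.01 ± 1.08 CPM in obese mice, a log2 fold change of -0.85 ± 0.11 against control and -0.93 ± 0.11 against obese mice. Obese and control mice overlapped, with a log2 fold change of 0.08 ± 0.10. These values rest on 68 to 185 counted fragments per library, the fewest of the 10 genes.

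Slc13a2 (chromosome 11, 78397276 to 78422185, minus strand) encodes a sodium-coupled carrier of dicarboxylates such as succinate and citrate, which are products of microbial and host metabolism rather than short-chain fatty acids. Its level was 217, 251, 275, 245 and 234 CPM in control mice and 219, 228, 218, 212 and 251 CPM in obese mice. Formerly obese mice 1 to 5 reached 292, 275, 280.0, 309 and 317 CPM. All 5 formerly obese mice were above all 5 obese mice, and 4 of them were above every control mouse, since control mouse 3 reached the level of formerly obese mouse 2. The mean was 294.7 ± 18.3 CPM in formerly obese mice against 244 ± 21.5 CPM in control and 226 ± 15.2 CPM in obese mice. The log2 fold change was 0.39 ± 0.06 against obese and 0.27 ± 0.06 against control mice, and the latter was close to the fold cutoff, since it was no longer called without control mouse 1 (0.23) or 5 (0.26) or without formerly obese mouse 4 (0.26) or 5 (0.24). The difference between obese and control mice was -0.11 ± 0.06, with overlap. An antisense entry, Slc13a2os, overlaps the gene and had a mean of 0.0368 CPM.

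Slc16a12 and Slc13a2 thus differed in opposite directions in formerly obese mice. Both differences came with those of the marker lists given above, and the part of those lists in them was not tested.

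The receptor Ffar2 (chromosome 7, 30818357 to 30823775, minus strand) senses acetate, propionate and butyrate and is known from enteroendocrine and immune cells. Values were 24.2, 17.5, 23.7, 19.6 and 21.3 CPM in control mice and 24.1, 18.9, 22.4, 21.8 and 18.6 CPM in obese mice. After the switch of diet the values were 22.3, 18.6, 20.2, 18.6 and 25.1 CPM. The 3 groups covered the same range, with means of 21.2 ± 2.80, 21.2 ± 2.35 and 20.9 ± 2.76 CPM in control, obese and formerly obese mice. The log2 fold changes were -0.01 ± 0.11, -0.02 ± 0.10 and -0.01 ± 0.10 in obese against control, formerly obese against control, and formerly obese against obese mice, and no difference was detectable. Summed enteroendocrine markers ranged from 141 to 336.9 CPM over all 15 libraries, and summed immune markers from 13.4 to 37.2 CPM.

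**Figure D3:**
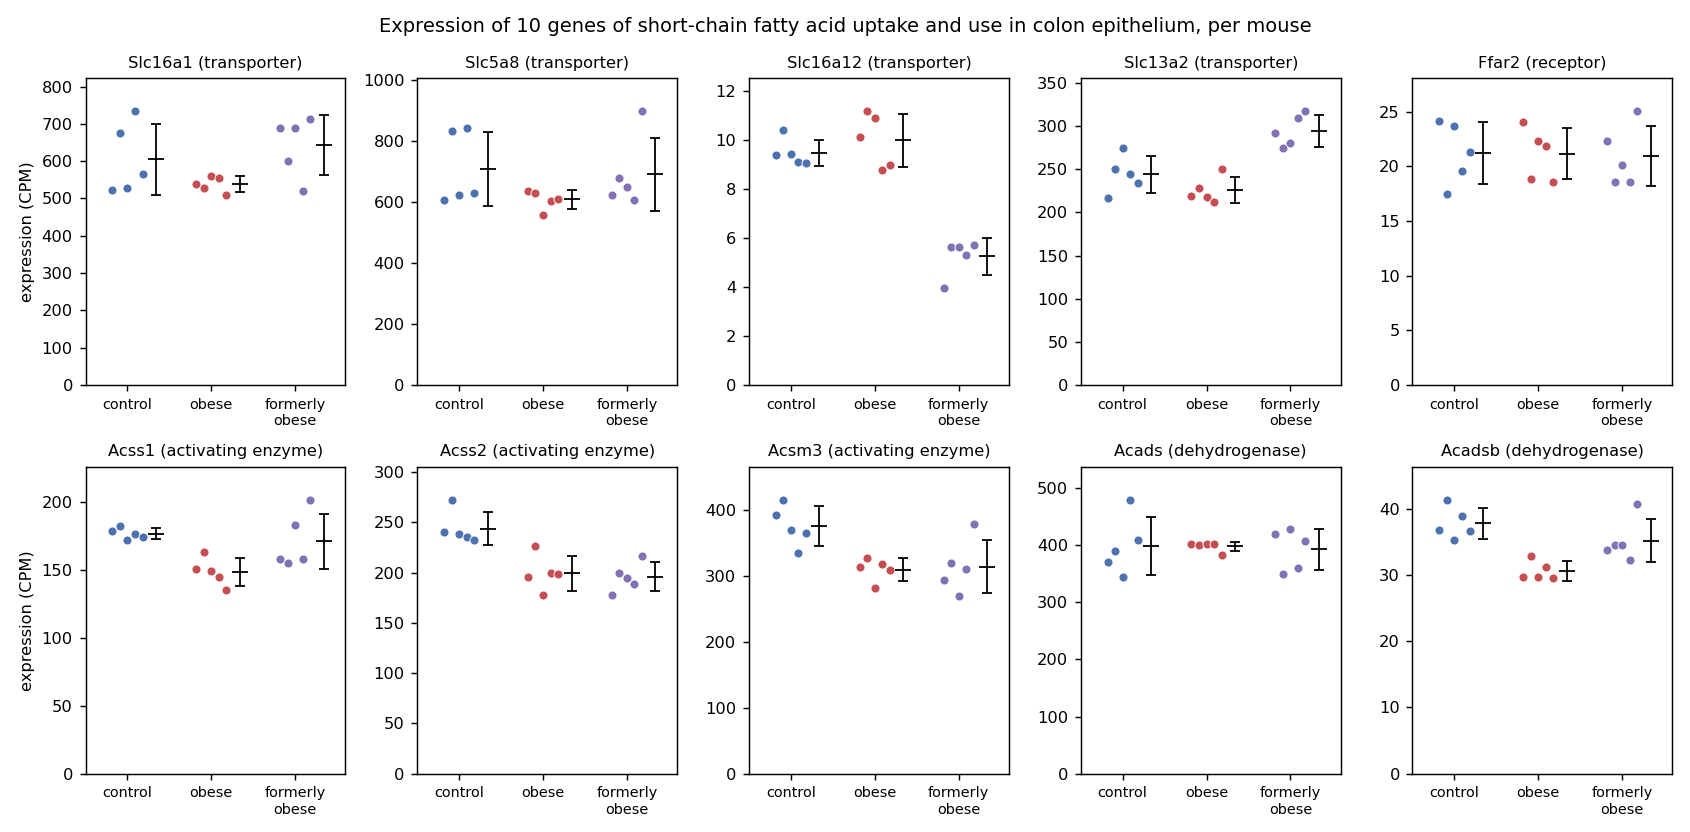
Expression of each of the 10 genes in CPM (vertical axes, each starting at 0) in 5 control, 5 obese and 5 formerly obese mice, 1 point per mouse, with the group mean and SD as a black bar. The 5 formerly obese mice lie below all other mice for Slc16a12, and the 5 obese mice lie below all control mice for Acss1, Acss2, Acsm3 and Acadsb.

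Of the activating enzymes, Acss1 (chromosome 2, 150618111 to 150668240, minus strand) makes acetyl-CoA from acetate inside the mitochondria. It was measured at 179, 183, 172, 176 and 175 CPM in control mice and 151, 163, 149, 145 and 135 CPM in obese mice. In formerly obese mice it was 158, 155, 183, 158 and 202 CPM. Control mice were tightly grouped and all 5 obese mice were below them, while formerly obese mice 1, 2 and 4 were below every control mouse, mouse 3 was level with the highest control mouse and mouse 5 was above it. Its log2 fold change was -0.25 ± 0.07 in obese against control mice, and the ratio of 0.841 was just short of the fold cutoff, so that Acss1 was not called with all libraries but was called without control mouse 3 (-0.26) or obese mouse 2 (-0.28). It was -0.05 ± 0.07 in formerly obese against control mice and 0.20 ± 0.07 in formerly obese against obese mice. The study used the same cutoffs with DESeq2 and reports Acss1 as downregulated in obese mice.

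Acss2 (chromosome 2, 155518043 to 155562743, plus strand) makes acetyl-CoA from acetate in the cytosol and nucleus. Control mice had 240.4, 272, 238, 235 and 232 CPM and obese mice 195, 226, 178, 199.7 and 198 CPM. The formerly obese mice had 178, 199.9, 195, 189 and 217 CPM. All 10 mice that had eaten the high-fat diet were below all 5 control mice, and control mouse 2 stood above the other control mice. The log2 fold change was -0.29 ± 0.06 in obese against control mice and -0.32 ± 0.06 in formerly obese against control mice, and formerly obese and obese mice overlapped at -0.03 ± 0.06. The call in obese mice was lost without control mouse 2 (-0.24) or obese mouse 3 (-0.25), and the call in formerly obese mice was kept whichever 1 library was left out.

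Acsm3 (chromosome 7, 119760923 to 119784896, plus strand) encodes a mitochondrial acyl-CoA synthetase that acts on butyrate and medium-chain acids. Its level was 392, 415, 369.6, 334 and 365 CPM in control mice and 313, 327, 281, 318 and 308 CPM in obese mice. Formerly obese mice 1 to 5 reached 293, 319, 269.9, 310.3 and 378 CPM. All 5 obese mice were below all control mice, as were 4 of the 5 formerly obese mice, with mouse 5 inside the control range. On the log2 scale the difference was -0.28 ± 0.08 in obese against control mice, a ratio of 0.825 just inside the fold cutoff, and -0.26 ± 0.08 in formerly obese against control mice, a ratio of 0.837 just outside it. The call in obese mice was lost when control mouse 1 or 2 or obese mouse 1, 3, 4 or 5 was left out, with log2 fold changes between -0.29 and -0.24, and a call in formerly obese mice was gained without formerly obese mouse 5 (-0.33), and without control mouse 3 (-0.27), 4 (-0.30) or 5 (-0.26). Formerly obese and obese mice overlapped, at 0.02 ± 0.08. The span of Acsm3 overlaps that of Eri2 on the other strand by 1071 bases. Eri2 had a mean of 10.1 CPM, and reads from exons in the overlap could not be told apart if strand was not used.

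Of the dehydrogenases, Acads (chromosome 5, 115110299 to 115119346, minus strand) carries out the first oxidation step of butyryl-CoA. Values were 370.4, 389, 344, 479 and 409 CPM in control mice and 402, 401, 402, 401 and 383 CPM in obese mice. After the switch of diet the values were 419, 349, 428, 359 and 408 CPM. The obese mice were closely grouped in the middle of the wider control range, and the group means were 398 ± 51.0, 398 ± 8.26 and 393 ± 36.0 CPM in control, obese and formerly obese mice. The log2 fold changes were -0.002 ± 0.08 in obese against control, -0.02 ± 0.08 in formerly obese against control, and -0.02 ± 0.08 in formerly obese against obese mice.

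Acadsb (chromosome 7, 131410601 to 131446211, plus strand) encodes the dehydrogenase of short, branched acyl-CoA, known for its step in isoleucine breakdown. It was measured at 36.8, 41.3, 35.2, 39.0 and 36.7 CPM in control mice and 29.6, 32.9, 29.7, 31.2 and 29.5 CPM in obese mice. In formerly obese mice it was 33.8, 34.6, 34.6, 32.2 and 40.7 CPM. All 5 obese mice were below all control mice, while 4 formerly obese mice lay just under the control range, 1 of them (mouse 4) within the obese range, and mouse 5 lay inside the control range. Its log2 fold change was -0.30 ± 0.06 in obese against control mice, -0.10 ± 0.06 in formerly obese against control mice and 0.20 ± 0.06 in formerly obese against obese mice. Its call in obese mice was kept whichever 1 library was left out.

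In obese against control mice 4 of the 10 genes, all enzymes, were lower in all 5 mice without overlap, where 1.26% of all genes were (1.21% were higher). The median log2 fold change was -0.28 over the 5 enzymes and -0.14 over the 4 transporters, beside 0.00 over all genes tested. Against control mice, 2 were lower without overlap in formerly obese mice, the transporter Slc16a12 and the enzyme Acss2 (background 1.87% lower and 1.75% higher), with medians of -0.10 over the enzymes and 0.03 over the transporters. Formerly obese against obese mice showed Slc16a12 lower and Slc13a2 higher without overlap (background 1.89% lower and 1.49% higher), with medians of 0.02 over the enzymes and 0.22 over the transporters. The comparisons share their control or obese mice, and the genes were chosen with them known, so these medians are a description of the 10 genes. Among the 4 enzymes that were lower in obese mice, Acss2 and Acsm3 stayed near the obese level in formerly obese mice (differences of -0.03 and 0.02), whereas Acss1 and Acadsb were each 0.20 above it. Whether these differences between genes exceed their error was not tested.

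**Figure D4:**
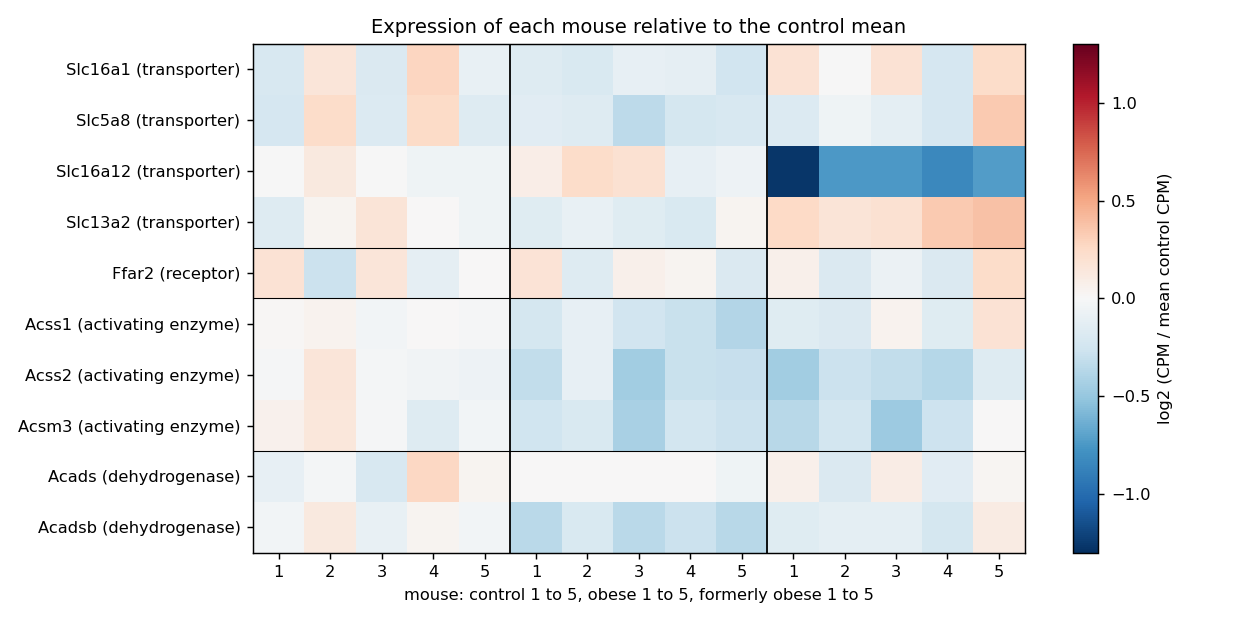
Log2 ratio of each mouse's CPM to the control mean for the 10 genes (rows) in control, obese and formerly obese mice 1 to 5 (columns), from blue (lower) to red (higher). Slc16a12 is between -1.26 and -0.73 in the 5 formerly obese mice, Acss2 is below 0 in all 10 obese and formerly obese mice, and formerly obese mouse 5 is the reddest of its group in most rows.

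A wider list of 68 genes, written by role from textbook knowledge with earlier results of these data known, held 54 with enough counts to test. It joins genes of short-chain fatty acid handling with neighbouring ones, among them 14 of branched-chain acyl-CoA breakdown and the sulfate carrier Slc13a1. The counts for the list cover all of them. In obese against control mice none was called by edgeR or by DESeq2, where edgeR called 0.864% of all genes lower and 0.718% higher. An unadjusted p under 0.05 was found for 14, as for 1407 of all 12961 genes. The difference was negative for 37 of 54, with a median of -0.06 beside 0.00 over all genes. The 14 genes of branched-chain acyl-CoA breakdown cover more than the isoleucine pathway of Acadsb. The difference was negative for 13 of them, with a median of -0.15 and an unadjusted p under 0.05 for 9. This role was singled out after its values were seen. Among the 14 genes, Ivd (-0.19 ± 0.05 SE, edgeR adjusted p = 0.177), Hibadh (-0.20 ± 0.06, adjusted p = 0.209) and Auh (-0.16 ± 0.06, adjusted p = 0.323) were lower in all 5 obese mice without overlap. They were picked for that after their values were seen, and 1.26% of all genes were lower without overlap. The 9 other enzymes of butyrate oxidation had a median of -0.01, and the 6 of propionate use a median of -0.10.

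In formerly obese against control mice 3 of the 54 genes were called, 2 higher and 1 lower, where 1.85% of all genes were called higher and 1.87% lower. Slc9a3, the apical sodium-proton exchanger that works beside short-chain fatty acid uptake, was 68.8, 86.6, 119, 90.9 and 66.5 CPM in control and 144, 103, 124, 169 and 181 CPM in formerly obese mice. Of the formerly obese mice 4 were above every control mouse, with a log2 fold change of 0.74 ± 0.18 (edgeR adjusted p = 0.0453). Slc26a3, the chloride-bicarbonate exchanger, which is also in the colonocyte marker list, was 818, 1311, 1104, 1270 and 960.3 CPM in control and 1386, 1354, 1380, 1361 and 1764 CPM in formerly obese mice. All 5 formerly obese mice were above all control mice (0.41 ± 0.12, adjusted p = 0.0818 by edgeR), and mouse 5 was well above the others. The call was lost without that mouse (0.33) or control mouse 5 (0.36). Bckdha, a subunit of the branched-chain ketoacid dehydrogenase, was 76.7, 76.6, 65.8, 70.3 and 74.2 CPM in control and 64.8, 53.9, 58.1, 55.0 and 57.3 CPM in formerly obese mice. All 5 were below the control range (-0.33 ± 0.06, edgeR adjusted p = 0.0209).

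Against obese mice the same 2 exchangers were called higher, where 1.23% of all genes were called higher and 1.42% lower. Slc26a3 was higher by 0.62 ± 0.12 (edgeR adjusted p = 0.0433) and Slc9a3 by 0.69 ± 0.18 (edgeR adjusted p = 0.1). The call of Slc9a3 was lost without formerly obese mouse 5 (0.60). Obese mice had 872, 882, 1136, 854 and 954 CPM of Slc26a3 and 62.1, 78.8, 92.7, 87.6 and 124 CPM of Slc9a3. Every formerly obese mouse was above all obese mice for Slc26a3 and above the obese mean for Slc9a3.

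The most abundant tested genes of the remaining roles described here were not called in any comparison. Bsg, the partner protein that brings Slc16a1 to the membrane, had means of 884 ± 94.5, 875 ± 14.8 and 886 ± 41.7 CPM in control, obese and formerly obese mice. Acly, which makes cytosolic acetyl-CoA from citrate, had means of 732 ± 23.3, 640.3 ± 43.7 and 621 ± 79.1 CPM, and all 5 formerly obese mice were below the control range (-0.24 ± 0.07, edgeR adjusted p = 0.106). Pccb, a subunit of propionyl-CoA carboxylase, was -0.18 ± 0.05 in formerly obese against control mice (edgeR adjusted p = 0.0621), under the fold cutoff. Slc16a5, another carrier of the monocarboxylate family, was 0.25 ± 0.06 in formerly obese against obese mice (edgeR adjusted p = 0.0876), also under the fold cutoff. For Hadh, Dld, Acsf2, Slc13a1 and Olfr78, which serve butyrate oxidation, branched-chain breakdown, acyl-CoA synthesis, sulfate transport and acetate sensing, log2 fold changes ranged from -0.11 to 0.43 over the 3 comparisons.

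**Figure D5:**
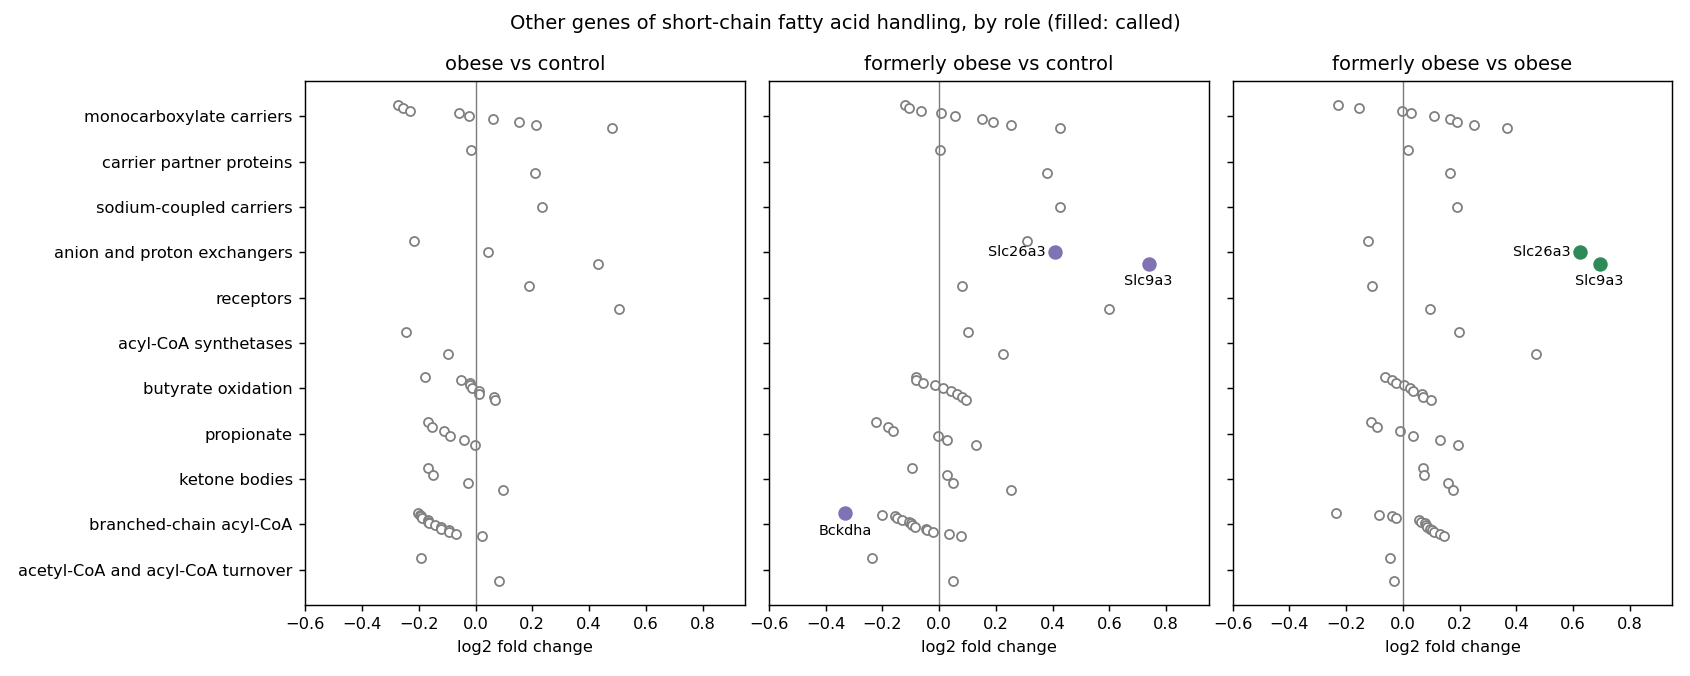
Log2 fold change (horizontal axes) of the 54 tested genes of the wider list by role (rows) in 3 comparisons between diet groups, with called genes filled and named and other genes open. No gene is called in obese mice, where the branched-chain genes lie mostly left of 0, and Slc26a3 and Slc9a3 are called at 0.41 to 0.74 in both comparisons with formerly obese mice.

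DNA methylation played no part in the choice of the genes. The authors' list of 8199 differentially methylated regions (DMRs) between obese and control mice, 4123 with more and 4076 with less methylation, had none within 5 kb of any of the 10 genes, where 16.5% of all tested genes had 1 or more. Within 100 kb there was a DMR for 4 of the 10 genes, against 62.4% of all tested genes. The nearest to Ffar2 lay 16.5 kb away in an intergenic stretch whose closest gene was Ffar3, another short-chain fatty acid receptor, at 14007 bases. The nearest to Slc13a2 lay 30.6 kb away inside Foxn1, and the nearest to Acads lay 46.2 kb away with Cabp1 as its closest gene. The 2 DMRs within 100 kb of Slc16a12 lay inside Ifit2, at 94.7 and 98.4 kb. The list holds no value per mouse, so the size and error of each region's change are not given here. The 3 nearest regions are shown with 30 bases on each side, on the plus strand of GRCm38.p6 (the primary sequence of mm10), because they are the methylation changes closest to these genes, and capitals mark CpG sites.
Ffar2, less methylated, chr7:30840280-30840323: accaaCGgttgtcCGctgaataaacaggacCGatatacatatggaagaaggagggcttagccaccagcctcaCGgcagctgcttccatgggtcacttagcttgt
Slc13a2, more methylated, chr11:78366717-78366725: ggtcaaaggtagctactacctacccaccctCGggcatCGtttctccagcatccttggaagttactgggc
Acads, more methylated, chr5:115165561-115165586: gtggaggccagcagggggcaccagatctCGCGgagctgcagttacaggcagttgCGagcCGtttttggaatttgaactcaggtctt

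The regions are short, at 44, 9 and 26 bases, and each holds 2 CpG sites. The windows with their flanks hold 4, 2 and 4 CpG sites. No CpG of the 233 covered by deep bisulfite sequencing of amplicons lay within 100 kb of any of the 10 genes, the nearest being 6.6 Mb away, so methylation per mouse could not be set beside the expression values.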

How the data were processed

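Colonic epithelium of 5 mice per diet was profiled by stranded poly(A) RNA-seq, and the deposited counts are whole numbers of fragments per gene, which the authors made with TopHat2 2.0.4 on mm10 and HTSeq (its version, strand setting and annotation are not given in the sources used here). Depth was 15230391 to 22762095 counts per library. Genes passing edgeR's filterByExpr (12961 of 24918) were scaled by TMM and fitted in 1 quasi-likelihood model over 15 libraries with group as the only term (edgeR 4.0.16, R 4.3.3; DESeq2 1.42.0 as an alternative). CPM values use TMM-scaled totals. On data simulated for obese against control mice, 12961 genes were drawn and 12899 tested. Of 200 changed genes 177 were called, with 36 false calls. Among the 200 were 95 genes set to differ 2-fold, and 90 of these were called. Recovery of differences near the fold cutoff of 1.2, where those of the enzymes in obese mice lie, was not tested separately.

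Members and lists were chosen with earlier results of these data known. The wider list was written by role from textbook knowledge and was not picked for how its genes moved. Named genes are the 10 members, wider-list genes called in any comparison, and the most abundant gene of each role, of which 1 is not reported here. Replicates are separate mice, and no pair of libraries agreed within counting error (chi-square over df at least 5.47). Deviations of same-numbered mice from their group means had correlations from -0.231 to 0.333, with both signs in each comparison. Mice with different numbers were not compared in this way. The numbers are not known to pair mice and were not used as pairs. The authors' DMR list (obese against control, with no value per mouse) and the deposited methylation fraction per amplicon CpG were used for positions only. The authors' DESeq2 tables hold fold changes, p-values and calls and were not used. Alternatives were other scalings, filters, call rules, a replicate block, GC correction, DESeq2, and each library left out.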

Additional observations from a re-analysis of the deposited data

Results flagged for a closer look

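Within groups of 5 mice, 9 of 69 groups checked held a mouse far from the others by Dixon's criterion (gap over range above 0.71), where chance gives about 1 in 20. Formerly obese mouse 5 was far above its group for Slc5a8 (897 CPM, next 677), Acadsb (40.7 CPM, next 34.6) and Slc26a3 (1764 CPM, next 1386), and it had the highest value of its group for 9 of the 10 genes. Control mouse 2 was far above its group for Slc16a12 (10.4 CPM) and Acss2 (272 CPM). Formerly obese mouse 1 was far below its group for Slc16a12 (3.96 CPM, next 5.32), and obese mouse 5 for Acads (383 CPM, next 401). Control mouse 4 was far above for Bsg (1048 CPM) and control mouse 3 far below for Pccb (255 CPM).

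For Slc26a3 and Slc9a3 the gap between formerly obese and obese mice in their difference from control mice was called. The call is that of the edgeR contrast of formerly obese against obese mice given above, so it adds no separate support. Slc9a3 lost its call without formerly obese mouse 5. The gap on the log2 scale was 0.62 for Slc26a3 (edgeR adjusted p = 0.0433) and 0.69 for Slc9a3 (edgeR adjusted p = 0.1). It was -0.93 for Slc16a12 and 0.39 for Slc13a2, where it helped choose the genes and stands as a description, not a test.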

How the results depend on the processing

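Counts of calls were within 1.5 times the values in the report under other scalings, filters, GC correction, DESeq2 and a fit of only the groups compared. Under a rule of adjusted p below 0.05 and any fold, 16 genes in place of 205 were called in obese against control, 282 in place of 482 in formerly obese against control and 25 in place of 343 in formerly obese against obese mice, with 0 members in place of 3 in the first comparison and 1 wider-list gene in place of 2 in the last. Leaving out 1 library moved the genes called to 40 to 331, 362 to 660 and 167 to 400 in these comparisons, members called to 1 to 4, 2 to 4 and 2 to 3, and wider-list genes called to 0 to 1, 2 to 6 and 1 to 3. In obese against control mice the call count was 44 without control mouse 2 and 40 without obese mouse 3, and 1 member, Acadsb, was then called. Without obese mouse 2 it was 331, with 1 wider-list gene. In formerly obese against obese mice it was 195 without obese mouse 1, 209 without obese mouse 2 and 167 without formerly obese mouse 5. Without control mouse 4, 6 wider-list genes were called in formerly obese against control mice. Widening the distance to 100 kb gave 4 members with a DMR in place of 0. The cause of these changes was not tested, and leaving out a mouse raised the counts of calls in some cases and lowered them in others.

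Of the named genes' fold changes with all libraries, 612 kept their side of the call rule, 2 gained and 7 lost a call. Beside those lost to the stricter rule, Slc13a2 lost its call against control mice with upper-quartile scaling (0.26), where Acsm3 gained one (-0.27), and GC correction removed that of Bckdha (-0.26) and added Acsm3 (-0.30). With a library left out, 659 kept their side, 16 gained and 15 lost a call. Slc16a12 kept both calls throughout. No called difference changed direction. Of 1311 alternative values of the named genes, called or not, 56 were uncalled values with a changed sign. Upper-quartile scaling moved the median of all genes by at most 0.011 and GC correction by at most 0.019 (log2).

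The replicate numbers are not known to pair mice. With the replicate number as a block, 252, 537 and 346 genes were called in the 3 comparisons, members stayed at 3, 3 and 2, and wider-list genes were 0, 4 and 2. Slc16a12 was -0.85 and -0.93 with the block, and no named call was lost.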
